A study of Mus musculus with 12 samples.

Results

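The clustered histone genes are the replication-dependent histone genes that lie in groups in the mouse genome and carry names from Hist1 to Hist4. In the somatosensory cortex of 7-day-old (P7) mice, 69 gene symbols of the deposited RNA-Seq count files began with Hist1h, Hist2h, Hist3h or Hist4h, and 21 of them had 10 or more counts summed over all 12 libraries. These 21 symbols, of 24452 symbols in the files, are described here. The rule used only the name and the summed count, not the treatment groups. Of the other 48 symbols, 21 had no count in any library and 27 had from 1 to 9, and together they held 88 of the 7413 counts. The symbol just inside the minimum was Hist3h2bb-ps with 11 counts, and the symbol just outside was Hist4h4 with 9.

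The study asked how p53 shapes the response of the developing cortex to ethanol in a mouse model of fetal alcohol spectrum disorder. Male C57BL/6 mice were either wild type (WT) or p53 knockout (KO, the Trp53 tm1Tyj allele, bred from heterozygous parents), and each received 2 injections of saline or of ethanol on postnatal day 7 with the cortex taken hours later. The 4 groups were WT saline, WT ethanol, KO saline and KO ethanol, with 3 libraries each, numbered as in the labels: 1, 3 and 13, then 4, 5 and 14, then 7, 8 and 9, then 10, 12 and 18. The KO is constitutive, so every cell of the tissue lacked the intact gene, and the labels do not say which libraries came from litter mates.

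Libraries held from 719735 counts (KO ethanol 12) to 17066392 (KO saline 8). Tests, all two-sided, were made with edgeR's quasi-likelihood fit over all 12 libraries with trimmed-mean (TMM) scaling, and p-values were adjusted by Benjamini-Hochberg over all 14739 symbols tested. WT saline stood apart: its replicate 1 had a TMM factor of 0.564 against 0.832 to 1.23 in the other 11 libraries, and all 5 red blood cell markers (hemoglobin genes and Alas2) were at an unadjusted p under 0.05, lower in WT ethanol and in KO saline than in WT saline. The libraries WT saline 3 and KO ethanol 12 had names with a different first letter and the smallest totals, and results are given without them where that matters. The neuronal marker list summed to between 2342 and 6404 normalized CPM (counts scaled to library size) in every library, while the choroid plexus list ranged from 0 in KO ethanol 12 to 5010 in WT ethanol 4. Trp53 itself had from 3.67 to 26.2 normalized CPM in the 6 WT libraries and from 11.1 to 28.7 in the 6 KO libraries. Its counts cover exons outside the deleted part of the allele, so they do not check the labels.

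Histones are the proteins around which DNA is wound. H2A, H2B, H3 and H4 form the core of the nucleosome, and the linker histone H1 binds where DNA enters and leaves it. Dividing cells make clustered histone messages in S phase, when new DNA must be packaged. Most of these messages have no introns and no poly(A) tail, and end instead just after a short stem-loop that the stem-loop binding protein holds. Some clustered histone genes also give longer messages with a poly(A) tail, which are made outside S phase, and neurons rely largely on the replacement histones, whose genes lie outside the clusters. The labels name a stranded mRNA library kit and the study's methods name total RNA, so whether messages were selected by their poly(A) tail is not settled by the sources used here, and the counts below hold for the messages this preparation kept.

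The 3′ ends of the leading genes are shown first because both kinds of end occur among them. In the GENCODE transcript records (GRCm38), a match to the histone stem-loop was found after the stop codon of 13 of the 21 genes, and of 45 of all 69 symbols. Only the longest record with a stop codon was searched, which 20 members and 67 of all symbols had. Some of these records hold almost no sequence past the stop codon (1 base for Hist1h2af, 0 for Hist1h1b and Hist2h2bb). A missing match therefore does not show that a gene lacks the stem-loop. The stem-loop is printed in capitals for the 2 most counted genes, the leading H1 gene, 2 H4 genes and the only H3 gene.
Hist3h2ba, chr11:58949344-58949369, + strand: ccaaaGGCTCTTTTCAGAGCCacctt
Hist3h2a, chr11:58955167-58955192, + strand: ccaaaGGCTCTTTTCAGAGCCaccca
Hist1h1c, chr13:23739507-23739532, + strand: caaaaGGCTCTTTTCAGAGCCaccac
Hist1h4d, chr13:23581945-23581970, + strand: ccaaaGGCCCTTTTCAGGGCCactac
Hist1h4i, chr13:22040961-22040986, − strand: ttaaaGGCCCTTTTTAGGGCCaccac
Hist1h3f, chr13:23544927-23544952, + strand: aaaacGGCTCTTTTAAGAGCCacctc

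A poly(A) signal (the letters AATAAA close to the end of the record) was found in 4 of the 6 most counted genes, in 1 of the other 15 members, and in 11 of all 69 symbols. The same records were searched, so a missing signal has the same limit. The sites are given below for those 4 genes with the signal in capitals.
Hist3h2ba, chr11:58949495-58949524, + strand: cataatggtattAATAAAtttggttcaatt
Hist3h2a, chr11:58956785-58956814, + strand: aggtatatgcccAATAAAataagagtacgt
Hist2h2be, chr3:96223705-96223734, + strand: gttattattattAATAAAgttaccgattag
Hist1h1c, chr13:23740330-23740359, + strand: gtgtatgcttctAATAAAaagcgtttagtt
The GENCODE records of Hist3h2ba, Hist3h2a and Hist1h1c run on for 169, 1643 and 840 bases past the stem-loop to these signals. The RefSeq gene models in the count files end 8, 5 and 4 bases past it, so reads from the longer ends were not counted for these 3 genes. Hist2h2be had no stem-loop match in its 3′ end, and its model in the files reaches the poly(A) signal.

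The counts were concentrated in a few genes. Hist3h2ba had 2311 counts over the 12 libraries, Hist3h2a 1540, Hist1h2bc 1516, Hist2h2be 678, Hist1h2af 630 and Hist1h1c 312. These 6 genes held 95.4% of the members' 7325 counts, and the other 15 members summed to 338. By type, H2B genes held 62.9% of the counts of all matching symbols, H2A genes 29.7%, H1 genes 5.5%, H4 genes 1.34% and H3 genes 0.513%. The core histone proteins are used in equal amounts in the nucleosome, and these message counts were far from equal. The counts are not scaled for length and leave out histone genes outside the clusters. How reads that fit several genes were divided is not stated. The counts therefore do not give the balance of histone messages in the tissue. Members made up 5 of 6 H1 symbols, 3 of 19 H2A, 8 of 19 H2B, 1 of 12 H3 and 4 of 13 H4.

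**Figure D1:**
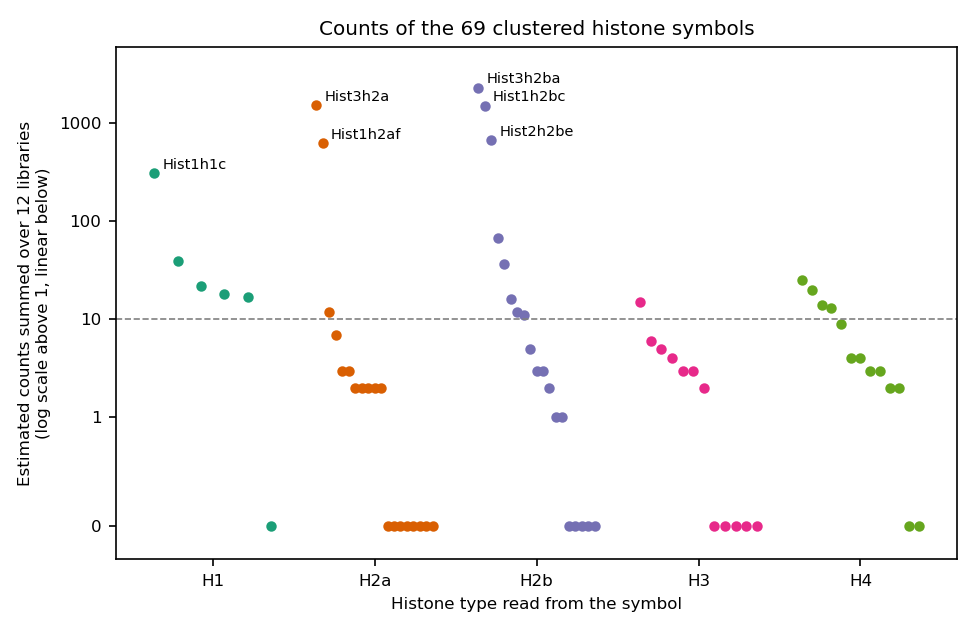
Estimated counts of each of the 69 symbols summed over 12 libraries (vertical axis, log scale above 1), by histone type (horizontal axis), with the minimum of 10 as a dashed line. The 6 named genes have from 312 to 2311 counts, while 21 symbols lie at 0.

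By genome cluster, the 3 Hist3 symbols on chromosome 11 (58948911 to 58955192, mm10) were all members and held 52.1% of the counts. The 55 Hist1 symbols on chromosome 13 held 37.96% with 16 members, the 10 Hist2 symbols on chromosome 3 held 9.82% with 2 members, and Hist4h4 on chromosome 6 was not a member. Hist3h2ba (chr11:58948911-58949372) and Hist3h2a (chr11:58954685-58955192) are single-exon neighbors on the + strand. Between them on the − strand lies the pseudogene Hist3h2bb-ps, with which Hist3h2ba shares 75 of its 540 windows of 75 bases (the read length). The GENCODE record of Hist3h2a shares exon positions with Trim17 on the same strand.

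The promoters of this pair, as 300 bases around the gene start in RefSeq (GRCm38.p6), are printed because the pair held the most counts. Capitals mark matches on either strand to the octamer ATTTGCAT, the CCAAT box (CCAAT) and the TATA box (TATAAA).
Hist3h2ba, chr11:58948661-58948960, + strand: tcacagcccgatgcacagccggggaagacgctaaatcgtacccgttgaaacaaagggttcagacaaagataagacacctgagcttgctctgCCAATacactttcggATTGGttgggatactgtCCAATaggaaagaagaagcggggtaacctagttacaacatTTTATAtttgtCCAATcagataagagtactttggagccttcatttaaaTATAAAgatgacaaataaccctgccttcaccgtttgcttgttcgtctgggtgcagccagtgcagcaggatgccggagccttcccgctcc
Hist3h2a, chr11:58954435-58954734, + strand: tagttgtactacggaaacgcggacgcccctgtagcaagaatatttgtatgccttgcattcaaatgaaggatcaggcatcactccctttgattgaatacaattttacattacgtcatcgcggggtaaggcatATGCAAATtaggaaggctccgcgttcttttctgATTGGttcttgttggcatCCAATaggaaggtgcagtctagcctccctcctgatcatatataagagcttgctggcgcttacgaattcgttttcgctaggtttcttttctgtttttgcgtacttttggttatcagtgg
Hist3h2ba had 4 CCAAT matches and 2 TATAAA matches, and Hist3h2a had 1 octamer and 2 CCAAT matches. A promoter could be matched for 62 of the 69 symbols and for 17 of the 21 members. The octamer occurred in 14 of the 62, in 7 of 18 H2A and 7 of 16 H2B promoters, and in no H1, H3 or H4 promoter, against 1.74% of 32851 promoters. CCAAT occurred in 53 of 62 (85.5%, against 37.4% of all promoters), and H4 was the exception with 3 of 12. TATAAA occurred in 35 of 62 (56.5%, against 13.6%). A match describes the letters in this window only.

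Histone genes of 1 type are near copies of each other, and reads that fit several genes cannot be placed with certainty. For each symbol, the share of 75-base windows of its GENCODE transcripts that occur in no gene at another position was counted. These transcripts can run past the models that were counted. That of Hist3h2a has 2146 bases, 1643 of them past the stem-loop, while its counted model ends 5 bases past it. Other records stop short of the model. That of Hist1h2ai has 393 bases with 0 after the stop codon, while its counted model spans chr13:21716412-21716859. The shares therefore describe the GENCODE sequence and not the counted stretch. Median record lengths were 743 bases for the members, 530 for symbols with 1 to 9 counts and 480 for symbols at 0. The medians below thus compare records of unlike length. The 21 members had a median of 86.1% unique windows, the 27 symbols with 1 to 9 counts 63.8%, and the 21 symbols at 0 had 15.4%, with 12 of the 21 under 20%. No member was under 20%. Among the symbols at 0, Hist2h2aa2 had no unique window at all, whereas Hist1h1t and Hist1h2aa had 100%, and Hist1h2ba had 66.8%. These last 3 are known as testis histone genes.

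**Figure D2:**
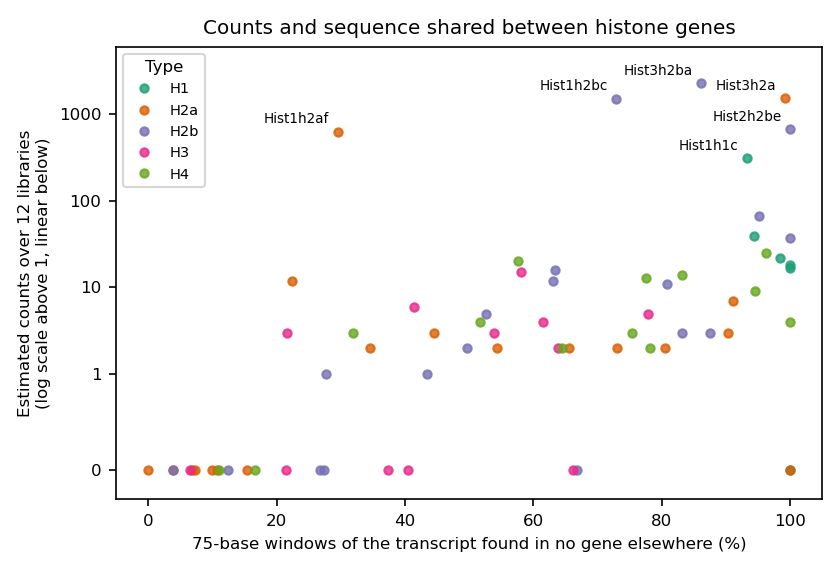
Share of 75-base windows of the GENCODE transcripts of each symbol that occur in no gene elsewhere (horizontal axis, percent) against estimated counts over 12 libraries (vertical axis, log scale above 1), with 1 point for each of the 69 symbols, colored by type. The transcripts can include 3′ sequence past the counted models or stop short of them. Symbols at 0 counts have a median of 15.4% unique windows, and Hist1h2af, at 29.5%, is the leading gene that shares the most sequence.

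Hist1h2af and Hist1h2bc need care when read this way. Hist1h2af (chr13:23533911-23534378, an H2A gene with 1 exon) had 29.5% unique windows and shared 229 of 325 with Hist1h2ad, so its counts may belong in part to other H2A genes. Its GENCODE record of 399 bases ends 1 base after the stop codon and is shorter than the counted model. The share therefore does not cover the whole counted stretch. Hist1h2bc (chr13:23684199-23692480, an H2B gene) has a spliced RefSeq transcript of 2 exons and a short one that ends near the coding part. All 1516 of its counts were assigned to the spliced transcript and 0 to the short one. Among the low genes, Hist1h2be and Hist1h1e overlap on the same strand, and the counts of Hist1h2be were divided over 3 transcripts.

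On the scale per transcript length, the deposited RPKM values (scaled for transcript length and library depth) gave an order over the 12 libraries. The median was 36.1 RPKM for Hist3h2ba, 21.4 for Hist3h2a, 14.7 for Hist1h2bc, 5.66 for Hist1h2af, 2.57 for Hist1h1c and 1.64 for Hist2h2be. Hist3h2ba was above Hist3h2a in 12 of 12 libraries and Hist3h2a was above Hist1h2bc in 9, so the first step in this order held in every library and the next did not. The seventh gene, Hist1h4d, had a median of 0.316 RPKM, and the 5 lowest genes (Hist2h2bb, Hist1h4c, Hist1h2bb, Hist1h1b and Hist1h2bp) a median of 0. The median of Hist3h2ba exceeded that of 91.9% of all symbols in the files. Of the replacement histones outside the clusters, H3f3a, the gene of an H3.3 protein, had a higher median of 526.6 RPKM and the H2A variant gene H2afz one of 322.3, while that of the linker gene H1f0 was 36.1, as for Hist3h2ba. A single count was worth 0.0305 to 1.24 RPKM outside KO ethanol 12 and 1.63 to 4.92 RPKM in KO ethanol 12, so RPKM values of low genes in that library rest on very few reads.

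The group comparisons could be tested for the 6 leading genes, since these alone passed edgeR's default filter on low counts. None of them had an adjusted p under 0.05 in any of the 5 contrasts, and the lowest adjusted p was 0.297 (edgeR, over all symbols tested). Of all symbols, 0.0746% had one in WT ethanol against WT saline, 0.0543% in KO saline against WT saline and 0% in the other contrasts. At an unadjusted p under 0.05, edgeR gave 0, 0, 0 and 1 of the 6 for WT ethanol against WT saline, KO ethanol against KO saline, KO saline against WT saline and KO ethanol against WT ethanol, and 2 of the 6 for the Genotype x Treatment interaction. The share of all symbols at that level in this fit was 18.3%, 3.15%, 19.6%, 3.24% and 15.2% in the same order. Leaving out single libraries, the interaction count was 0 without KO saline 8, 3 without WT saline 3, WT ethanol 5 or KO ethanol 10, and 1 or 2 otherwise. The shares of all symbols in those fits are not given here, so nothing is read from these counts. DESeq2 gave 0, 2, 0, 2 and 3, and limma on the RPKM values gave 0, 1, 0, 1 and 1. Of 14669 symbols under DESeq2, 331 were higher and 252 lower at that level in KO ethanol against KO saline. In KO ethanol against WT ethanol 269 were higher and 346 lower, and 1388 interactions were positive and 1137 negative. The share of all symbols under limma is not given here, so nothing is read from its counts. With 3 libraries per group a p above the threshold does not show that the levels were alike.

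Hist3h2ba, the most counted H2B gene, had 39.3, 19.0 and 21.4 normalized CPM in WT saline, 10.8, 25.8 and 14.4 in WT ethanol, 19.8, 9.43 and 17.0 in KO saline and 16.1, 45.1 and 23.2 in KO ethanol. Its highest values were those of WT saline 1 and KO ethanol 12, and all groups overlapped. The means were 26.6 ± 11.1, 17.0 ± 7.80, 15.4 ± 5.39 and 28.2 ± 15.1 (SD, n = 3). The interaction, the ethanol difference in KO minus that in WT, was 1.44 on the log2 scale (SE 0.70, adjusted p = 0.343, edgeR).

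Hist3h2a, the most counted H2A gene, had 14.1, 14.9 and 13.1 normalized CPM in WT saline, 6.34, 14.2 and 5.97 in WT ethanol, 12.3, 10.3 and 12.3 in KO saline and 16.5, 11.7 and 16.4 in KO ethanol. After TMM scaling its WT saline libraries were all above its KO saline libraries, while the log2 difference was only −0.27 (SE 0.41, adjusted p = 0.735, edgeR). As CPM of the library total these groups overlapped, with 7.97, 14.8 and 11.3 in WT saline and 14.4, 10.3 and 13.8 in KO saline. Without TMM the log2 difference was 0.19. The share of all symbols whose groups lay apart in this way is not given here, for this gene or others. In WT ethanol, replicates 4 and 14 were low and replicate 5 lay with WT saline, for a log2 difference of −0.66 (SE 0.41, adjusted p = 0.382).

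Hist1h2bc, whose counts came from the spliced transcript, had 27.9, 10.3 and 13.4 normalized CPM in WT saline, 11.0, 12.5 and 8.26 in WT ethanol, 11.9, 8.26 and 9.12 in KO saline and 12.4, 40.1 and 12.7 in KO ethanol. The KO ethanol libraries were all above the KO saline libraries, though replicates 10 and 18 by less than 1 normalized CPM over KO saline 7. The log2 difference between these groups was 1.02 (SE 0.52, adjusted p = 0.999, edgeR), and without KO ethanol 12 it was 0.37. Its interaction of 1.73 (SE 0.73) had the smallest unadjusted p of the 6 genes in this fit, 0.0318, with an adjusted p of 0.297, where 7.5% of all symbols had a positive interaction at an unadjusted p under 0.05. Without WT saline 3 and KO ethanol 12 its log2 difference of KO saline from WT saline was −1.15 with an adjusted p of 0.0471 (edgeR), a level that 25.3% of all symbols then reached. Without KO ethanol 12 the interaction was 1.07 (adjusted p = 0.556).

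**Figure D3:**
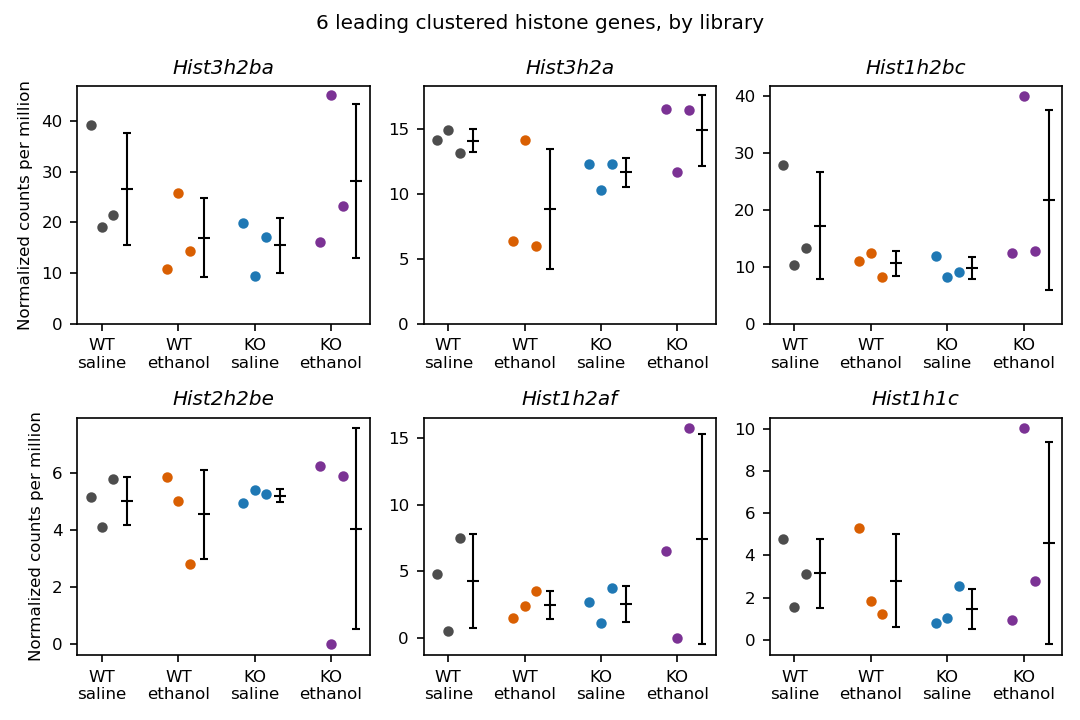
TMM-normalized CPM (vertical axes, each gene on its own scale) of the 6 leading genes in the 3 libraries of each group, in replicate order, with the mean ± SD beside them. WT saline 1 and KO ethanol 12 hold the highest values of Hist3h2ba and Hist1h2bc, and KO ethanol 12 lies at 0 for Hist2h2be and Hist1h2af.

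Hist1h2af had 26, 1 and 101 counts in WT saline, 26, 26 and 20 in WT ethanol, 37, 19 and 43 in KO saline and 83, 0 and 248 in KO ethanol. On the normalized scale KO ethanol 18 reached 15.7 CPM and KO ethanol 10 reached 6.55, and KO ethanol 12 and WT saline 3, the shallowest libraries, had 0 and 0.51. A count of 0 in KO ethanol 12 allows up to 4.17 CPM of its total (3 counts, counting error only). The log2 difference of KO ethanol from WT ethanol was 1.82 (SE 0.85, adjusted p = 0.982) and the interaction was 2.69 (SE 1.19, adjusted p = 0.312, edgeR). Without KO ethanol 18 the 2 values fell to 0.88 and 1.75, and the difference of KO ethanol from KO saline, 1.76 with all libraries, was 0.81. Without WT saline 13 the interaction was 2.04. Without WT saline 3 and KO ethanol 12 it was 3.55 (adjusted p = 0.0876), and the differences of KO ethanol from WT ethanol and from KO saline were 2.20 and 2.12 (adjusted p of 0.712 and 0.864).

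Hist2h2be, an H2B gene with unique sequence in 100% of its windows, had 5.14, 4.11 and 5.79 normalized CPM in WT saline, 5.83, 5.00 and 2.81 in WT ethanol, 4.94, 5.39 and 5.26 in KO saline and 6.24, 0 and 5.90 in KO ethanol. Its 4 differences between groups lay between −0.15 and 0.10 on the log2 scale with SE of 0.57, and its interaction was 0.07 (SE 0.81, adjusted p = 0.98, edgeR). The interaction of plus or minus 2 SE therefore leaves room for changes of over 1 log2 unit in either direction.

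The linker histone genes were led by Hist1h1c, which had 4.78, 1.54 and 3.12 normalized CPM in WT saline, 5.32, 1.85 and 1.23 in WT ethanol, 0.81, 1.05 and 2.54 in KO saline and 0.95, 10.0 and 2.79 in KO ethanol. The value of KO ethanol 12 rests on 6 counts. The log2 difference of KO saline from WT saline was −1.16 (SE 0.82, adjusted p = 0.438, edgeR), and the groups overlapped. Its interaction of 1.34 (SE 1.19) lay between 0.55, without KO ethanol 12, and 2.20, without WT ethanol 4, when single libraries were left out. Hist1h1e had 39 counts in all, Hist1h1d 22, Hist1h1a 18 and Hist1h1b 17, and WT saline 1 and 13 together held 19, 14, 11 and 13 of them. WT saline 3 held 0 of each. Outside WT saline, Hist1h1d, Hist1h1a and Hist1h1b had 8, 7 and 4 counts, below the minimum of 10. These 3 genes are members only through WT saline, so nothing is read from their high share there. Hist1h1t, the testis linker histone gene, had 0 counts.

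**Figure D4:**
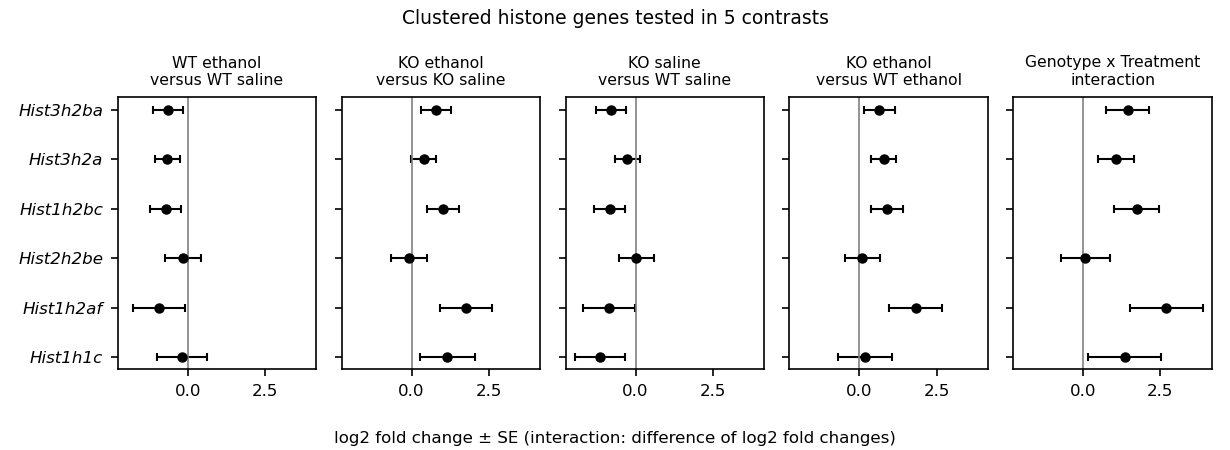
log2 fold changes with standard errors (horizontal axes) of the 6 tested genes in the 4 group contrasts, and their difference in the interaction. In WT ethanol against WT saline all 6 points lie below 0 (−0.93 to −0.15), in the interaction all 6 lie above 0 (0.07 to 2.69), and no adjusted p is under 0.05.

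As a set, described without a test, the 6 genes had a median log2 difference of −0.66 in WT ethanol against WT saline (6 of 6 below 0), 0.91 in KO ethanol against KO saline (5 above), −0.81 in KO saline against WT saline (5 below) and 0.72 in KO ethanol against WT ethanol (6 above), with 1.39 for the interaction (6 above). The medians of all symbols tested were 0.06, 0.01, 0.04, −0.03 and −0.11. These contrasts share groups, so the signs are not independent of each other. Without TMM scaling the median of all symbols moved to 0.49 in both contrasts against WT saline, and the share of higher symbols among those at an unadjusted p under 0.05 went from 54.4% to 89.4% and from 46.6% to 84.3%. Relative to the median of all symbols, the 6 genes then stood at −0.63 and −0.70, against −0.72 and −0.85 with TMM. With length and GC content trends removed, however, they stood at 0.06 and 0.03 relative to all symbols in these contrasts, so the difference from all symbols was close to 0, and the interaction stood at 0.62, against 1.502 with TMM alone.

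The 15 lower genes did not pass the default filter, and their group values were partly fixed by the minimum of 10 counts. Without the WT saline libraries 9 of them would have fallen below it (Hist1h1a, Hist1h1b, Hist1h1d, Hist1h2ag, Hist1h2bb, Hist1h3f, Hist1h4c, Hist2h2bb and Hist3h2bb-ps), and without KO ethanol 4 would have (Hist1h2bb, Hist1h2bp, Hist1h4h and Hist1h4i). Without KO saline 3 would have (Hist1h2ag, Hist1h4i and Hist3h2bb-ps), and without WT ethanol 2 (Hist1h2ag and Hist1h2bp). Where a gene was kept by the group in which it was high, it had to be lower elsewhere. The 15 genes are therefore described by their counts. In a fit that kept every symbol with at least 1 count in any library (19364 symbols), no member had an adjusted p under 0.05 in any of the 5 contrasts (edgeR). Of all symbols, 0.108% had one in WT ethanol against WT saline, 0.062% in KO saline against WT saline, 0.0361% for the interaction and 0% in the other contrasts. Without WT saline 3 and KO ethanol 12, 2 members (Hist2h2bb and Hist1h2bb) had one in WT ethanol against WT saline and 5 (these and Hist1h1b, Hist1h1d and Hist1h4c) in KO saline against WT saline, as had 16.9% and 19.2% of all symbols. All 5 are among the 9 genes that WT saline kept above the minimum, and nothing is read from their number.

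The 15 genes summed to 73 counts in WT saline 1, 99 in WT saline 13 and 0 in WT saline 3, whose 1953154 counts allow up to 1.54 CPM for a gene at 0. In WT ethanol they summed to 20, 15 and 5 counts, in KO saline to 14, 27 and 15, and in KO ethanol to 36, 8 and 26. As CPM of the library total that is 7.56 and 6.30 in WT saline 1 and 13, 0.988 to 1.38 in WT ethanol, 1.20 to 1.58 in KO saline and 1.98 to 11.1 in KO ethanol, where the highest is again KO ethanol 12. The WT saline libraries thus held both the lowest and nearly the highest values.

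Hist2h2bb (chr3:96269700-96270192), an H2B gene with 100% unique windows, had 23, 0 and 12 counts in WT saline, 0, 0 and 2 in WT ethanol and 0 in all 6 KO libraries. Its other 9 libraries held 2 counts in all, so it is a member only through WT saline 1 and 13. GENCODE places other transcripts on both strands at this position, and reads cannot be divided among them here. Hist1h2bb had 8, 0 and 1 counts in WT saline, 3, 0 and 4 in KO ethanol and 0 in the other 6 libraries. Hist1h4c had 5, 0 and 6 counts in WT saline, 1, 0 and 0 in WT ethanol, 0 in KO saline and 2, 0 and 0 in KO ethanol. Hist1h4h had its highest sum, 11 counts, in KO ethanol, against 5 in KO saline, 4 in WT saline and 0 in WT ethanol.

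**Figure D5:**
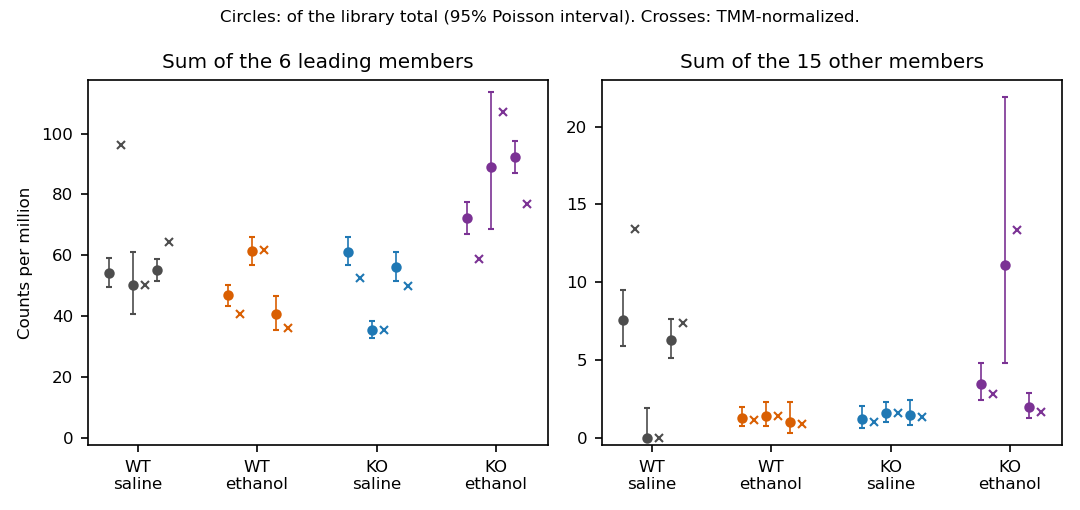
Summed CPM (vertical axes) of the 6 leading and the 15 other members in the 3 libraries of each group, as circles with 95% Poisson intervals on the library total and as crosses after TMM scaling. For the 15 others, WT saline 1 and 13 (7.56 and 6.30 CPM) and KO ethanol 12 (11.1, from 8 counts) stand above all other libraries, and WT saline 3 lies at 0.

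The sum of all 21 members was 61.7, 50.2 and 61.4 CPM of the library total in WT saline, 48.1, 62.7 and 41.7 in WT ethanol, 62.4, 37.1 and 57.7 in KO saline, and 75.6, 100.04 and 94.3 in KO ethanol. On this scale the KO ethanol libraries were above all others. After TMM scaling the range was 61.6 to 120.4 in KO ethanol, 50.4 to 109.5 in WT saline, 37.1 to 63.1 in WT ethanol and 37.1 to 53.6 in KO saline. KO ethanol then overlapped both WT groups and still lay above all KO saline libraries. Hist1h2af alone supplied 248 of the 1237 member counts of KO ethanol 18. Without Hist1h2af the KO ethanol libraries had 67.6, 100.04 and 75.4 CPM of the library total. The highest value in the other groups was then 60.3, in WT ethanol 5. The shares of the types moved too: H2A genes held 41.1% of the member counts in KO ethanol 18, 9.72% in KO ethanol 12, 37.4% in KO ethanol 10 and 17.8% to 31.6% in the WT saline, WT ethanol and KO saline libraries, and H2B genes held between 54.1% and 73.6% in every library. No test was made on these sums. The share of all symbols whose KO ethanol libraries lay above all others is not given here.

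For reading the counts of the lists below, the share of all symbols at an unadjusted p under 0.05 was 9.99% higher and 8.36% lower in WT ethanol against WT saline, and 9.14% and 10.5% in KO saline against WT saline. It was 1.15% and 2.01% in KO ethanol against KO saline, 0.977% and 2.26% in KO ethanol against WT ethanol, and 7.5% positive and 7.67% negative for the interaction.

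The replacement and variant histone genes outside the clusters were all tested (11 of 11). In WT ethanol against WT saline 2 were lower at an unadjusted p under 0.05 and none higher, with a median log2 difference of −0.73: H3f3a at −1.75 (SE 0.63, adjusted p = 0.21) and H2afz at −1.40 (SE 0.55, adjusted p = 0.222). These 2 of 11 genes stand beside 8.36% of all symbols. In KO saline against WT saline 3 were lower (H3f3a, H2afv and H2afz) and none higher, with a median of −0.81, beside 10.5% of all symbols. In KO ethanol against KO saline and against WT ethanol only H2afj, another H2A variant gene, passed that level, higher at 1.34 and 1.64 (adjusted p of 0.999 and 0.982), and it had an interaction of 2.31 (adjusted p = 0.264). The summed level of the list was 6535 normalized CPM in WT saline 1, 1478 and 3086 in the other WT saline libraries and 1294 to 1901 in the other groups.

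Of 19 genes that make or bind histone messages, 3 were higher (Fip1l1, Cstf2 and Npat) and 1 lower (Lsm10) in WT ethanol than in WT saline at an unadjusted p under 0.05, where 18.3% of all symbols passed in either direction. In KO saline against WT saline 5 were higher (Fip1l1, Cstf2, Lsm11, Hinfp and Casp8ap2) and 1 lower (Lsm10), where 19.6% of all symbols passed. In KO ethanol against KO saline 0 were higher and 1 lower (Casp8ap2), in KO ethanol against WT ethanol none passed, and 4 interactions were negative (Npat, Fip1l1, Casp8ap2 and Lsm11), beside 7.67% of all symbols. Npat, a coactivator of histone gene transcription, had 16.2 ± 4.83 (WT saline), 29.8 ± 4.71 (WT ethanol), 27.0 ± 8.87 (KO saline) and 16.8 ± 5.09 (KO ethanol) normalized CPM (SD, n = 3), with an interaction of −1.51 (SE 0.54, adjusted p = 0.26, edgeR). Slbp, the stem-loop binding protein gene, passed in no contrast and had 51.7 ± 22.4, 41.3 ± 2.46, 39.3 ± 10.9 and 34.7 ± 5.49 normalized CPM in the same order.

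Of 17 histone chaperone genes, none passed that level in WT ethanol against WT saline or in KO ethanol against WT ethanol, 1 was lower in KO ethanol than in KO saline (Atrx), 1 was higher in KO saline than in WT saline (Ubn1), and 2 had a negative interaction (Atrx and Supt16). Of 23 genes of S phase and mitosis, 3 were lower in WT ethanol than in WT saline (Pcna, Cdk1 and Tyms) and none higher, where 8.36% of all symbols were lower. In KO saline against WT saline 2 were higher (Top2a and Mki67) and 2 lower (Tyms and Pcna), 1 was lower in KO ethanol than in KO saline (Top2a), none passed in KO ethanol against WT ethanol, and 2 interactions were negative (Top2a and Mki67). No gene of these 4 lists had an adjusted p under 0.05. The S phase and mitosis list summed to 810, 233 and 575 normalized CPM in WT saline 1, 3 and 13 and to between 255 and 524 in the other groups, and WT saline 1 and 13 had its highest sums. Pcna alone made up 465 and 192 of these. Without it, a sum added after seeing the data, the list stood at 345 and 384 in WT saline 1 and 13, 177 in WT saline 3 and 184 to 382 in the other groups. Mki67 and Top2a, markers of proliferating cells, had their lowest group means in WT saline (7.30 ± 5.19 and 9.52 ± 3.47 normalized CPM, SD, n = 3) and their highest in KO saline (28.3 ± 16.6 and 33.1 ± 21.2). Whether the number of dividing cells moved the histone counts was not tested, and in bulk tissue fewer such cells and less message per cell cannot be told apart.

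Marker lists of the cell types in the tissue moved as follows at an unadjusted p under 0.05, where 18.3% and 19.6% of all symbols passed in the contrasts of WT ethanol and of KO saline against WT saline. The red blood cell list summed to 337 to 1319 normalized CPM in WT saline, 50.3 to 145 in WT ethanol, 35.9 to 99.3 in KO saline and 29.0 to 765 in KO ethanol, and all 5 of its genes were lower in both contrasts against WT saline. Of 7 microglia genes, 2 and 3 were lower in these contrasts. Of 7 astrocyte and radial glia genes 1 was lower in each (Fabp7), of 10 neuron genes 2 were higher and 1 lower in the first and 1 lower in the second, and of 7 oligodendrocyte lineage genes 1 was higher in the second (Olig2). Of 5 endothelial genes 1 was higher in the first (Flt1), and of 5 choroid plexus genes 2 were higher in the first (Clic6 and Ttr). In KO ethanol against KO saline no marker passed, in KO ethanol against WT ethanol 1 neuron gene was lower (Gad1), and interactions passed for 4 red blood cell, 3 neuron, 2 choroid plexus, 1 endothelial and 1 oligodendrocyte lineage genes. No listed marker was at 0 in all libraries. The part of these differences in the histone results was not tested.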

How the data were processed

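RNA-Seq libraries of 75-base single reads were made from the somatosensory cortex of 12 mice. The authors filtered reads by quality, aligned them with TopHat and its Bowtie2 engine (genome mm10) and estimated RefSeq transcript abundance using Partek (versions not given in the sources used here). They deposited estimated counts and RPKM values per transcript for each library. Sorted RPKM values are nearly equal across libraries, so libraries appear to have been rescaled to a common distribution. How Partek divided reads between near-identical genes is not stated.

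Here, estimated counts were summed per symbol and rounded to whole numbers. Of the nonzero values of the histone genes described, 97.0% were already whole. The main test was edgeR 4.0.16 (filterByExpr defaults, TMM factors, glmQLFit and glmQLFTest, R 4.3.3) with 1 mean per group over all 12 libraries, and Benjamini-Hochberg adjustment over all symbols tested, with a threshold of 0.05. Normalized CPM use the TMM-scaled library size. DESeq2 1.42.0 was an alternative, as was limma 3.58.1 after a log2 transform of RPKM (pseudocount 1 or 0.1, mean RPKM of at least 1), with others on scaling, filters, libraries, transcripts, length and GC content. Fits that left out libraries under the relaxed count filter were added after seeing the data. In a simulation of WT ethanol against WT saline with 14606 genes tested, edgeR found 97% of 200 genes changed 8-fold. These 200 genes were drawn from those above the median mean CPM, and all other genes had 1 common mean over the groups. The simulation therefore does not show how often smaller changes, or changes in low genes, would be found. Intervals on counts are exact Poisson or Clopper-Pearson, at 95%, and cover counting error only. For a gene at 0 the bound given is instead a floor of 3 counts over the library total. It is lower than the upper Poisson limit, which is 5.13 CPM in KO ethanol 12 and 1.89 CPM in WT saline 3.

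Transcript sequences came from GENCODE on GRCm38 (the assembly of mm10), promoters from RefSeq (GRCm38.p6). The stem-loop consensus was matched with at most 2 mismatches. Genes are named where they had the 5 smallest p-values of a contrast, the 3 highest mean RPKM of a type, or type H1; Hist2h2bb, Hist1h2bb and Hist2h2aa2, and the genes of the other lists, were singled out after their values were seen. The members and gene lists were chosen with earlier results of these data known. The labels number the libraries but do not say whether litters or dissection days differed, so p-values measure the spread between these libraries, which came partly from laser and partly from punch dissection in proportions not given per library.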

Additional observations from a re-analysis of the deposited data

How the results depend on the processing

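No paired analysis was possible because the groups share no library number. Of 129 counts of genes at an adjusted p under 0.05 recomputed over 26 other fits, 126 equalled the main count of 0. The exceptions left out the 2 libraries with another first letter. In KO saline against WT saline 1 gene was past the threshold (Hist1h2bc, −1.15 on the log2 scale, adjusted p = 0.0471, edgeR, where 25.3% of all symbols were past it). With every symbol of at least 1 count kept, 5 were past it in that contrast and 2 in WT ethanol against WT saline. These 5 and 2 would all fall below the minimum without the WT saline counts, and Hist1h2bb also without those of KO ethanol. The filter of at least 1 count with libraries left out was chosen after seeing the data. Fewer samples and more symbols enter these fits; the cause was not tested. Leaving out each library in turn gave 0 such genes throughout.

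Of the recomputed log2 differences of the leading genes, 705 kept sign and side of the threshold and 48 changed sign, mostly those of Hist2h2be near 0. In WT ethanol against WT saline, Hist3h2ba was 0.092 with length and GC trends removed, and without TMM Hist2h2be was 0.32 and Hist1h1c 0.41. In KO ethanol against KO saline, Hist2h2be was 0.047 (DESeq2), 0.0062 (no TMM), 0.20 and 0.19 (without the 2 libraries), 0.040 (first letter as a covariate) and 0.12 (trends removed), and Hist1h2af was −0.26 (limma, pseudocount 0.1). In KO saline against WT saline, Hist3h2ba was 0.17 (trends removed), Hist3h2a 0.19 (no TMM), and Hist2h2be −0.0046 (transcripts apart), −0.22 and −0.32 (limma, pseudocounts 1 and 0.1), −0.14 and −0.11 (without the 2 libraries), −0.29 (covariate) and −0.068 (trends removed). In KO ethanol against WT ethanol, Hist2h2be was −0.24 and −1.01 and Hist1h2af −0.26 (limma), and Hist1h1c −0.60 (without the 2 libraries) and −0.13 (covariate). The Hist2h2be interaction was −0.32 (no TMM), −0.023 and −0.69 (limma). The cause was not tested.

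Leaving out single libraries, Hist2h2be ranged from −0.39 to 0.029, −0.33 to 0.22, −0.11 to 0.15, −0.13 to 0.40 and −0.14 to 0.37 over the 5 contrasts, and Hist1h1c from −1.08 to 0.15 in WT ethanol against WT saline and −0.61 to 1.00 in KO ethanol against WT ethanol. The interaction of Hist1h2af ranged from 1.75 to 3.21 and that of Hist1h2bc from 1.07 to 2.12.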
